A study of Prunus avium with 18 samples.

Results

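A pair of endodormancy dates of the winter 2017-2018 was compared in flower buds of the sweet cherry (Prunus avium) cultivar 'Fertard', which flowers very late and needs much chilling: January 3 and, 26 days earlier, December 8. All libraries of both dates were taken, 3 for each, which makes 6 of the 18 libraries of the series. The series follows such buds over 6 dates between October 17 and March 12, and the study asks how the transport of water and molecules into the bud changes during dormancy. The 3 replicates of a date are independent whole buds from 3 different orchard trees, all of the same grafted cultivar. No treatment is described beyond common orchard practice, and whether the same trees were sampled at both dates is not stated. The study's text dates the December libraries to December 8, 2017, whereas their sample labels carry December 17, 2012. The date of the text is used here, and if the label were right the groups would also differ in the winter sampled, which cannot be told apart from the date. RNA came from the whole bud, so fewer cells of a type and less RNA per cell cannot be told apart.

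Endodormancy is the phase of winter rest in which a bud does not open even in warm conditions, because it first has to be exposed to cold for long enough. In dormant buds of several trees, plasmodesmata, the channels that join neighbouring plant cells, are narrowed by callose, a β-1,3-glucan. Callose synthases deposit callose, β-1,3-glucanases break it down, and plasmodesmal proteins bind it or regulate it. Water also crosses membranes through aquaporins and moves through cell walls, which are built by cellulose synthases and loosened or stiffened by enzymes that act on cellulose and pectin, and over longer distances it moves through the xylem. The genes named here come from the study's table of candidate genes for these routes, with the names given there.

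The total count was 16,245,476, 12,978,752 and 11,687,065 in the January 3 libraries, and 15,727,904, 10,899,526 and 11,041,119 in the December 8 libraries. The 10 most counted genes took 5.66% to 6.12% of the counts on January 3 and 7.57% to 7.97% on December 8. Replicates differed by more than counting noise, and replicate 1 of January 3 and replicate 2 of December 8 stood furthest from the other libraries of their date. The chi-square per degree of freedom was 10.4 and 8.51 in the pairs with replicate 1 of January 3, against 3.41 in the other pair of that date, and 9.05 and 7.73 in the pairs with replicate 2 of December 8, against 2.23 in the other pair. Across genes, the log-scale levels of 2 libraries correlated at 0.984 to 0.989 within a date and at 0.955 to 0.964 between the dates.

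Of 26,248 genes tested, January 3 had 1663 genes at a higher and 1063 at a lower level than December 8. A gene is called higher or lower when edgeR's quasi-likelihood test gave a Benjamini-Hochberg adjusted p under 0.05 and the log2 fold change was beyond 1 in absolute value, that is, a change of more than 2-fold. These calls are 6.34% and 4.05% of the genes tested, 10.4% in all. The median log2 fold change over all genes tested was 0.07. Of the genes called higher, 618 changed more than 4-fold and 123 more than 16-fold, and of those called lower, 229 and 26. The genes called higher had a median level of 4.01 CPM (counts scaled to a common library size) on January 3 and of 1.13 CPM on December 8. Those called lower had a median of 1.95 CPM on January 3 and of 5.32 CPM on December 8. The lowest January library lay above the highest December library in 1620 of the 1663 genes called higher, and the highest January library lay below the lowest December library in 1023 of the 1063 called lower. Over all genes tested, 28.5% and 20.4% separated in these ways.

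The excess of genes called higher over genes called lower depended on the libraries. Without replicate 1 of January 3 there were 1386 higher and 989 lower, and without replicate 2 of December 8 there were 1649 and 1000. Replicate 2 of January 3 and replicate 1 of December 8 are the libraries of their dates with the lowest mapping shares, and without both of them 1145 genes were higher and 1168 lower, so that the genes called lower were then the more numerous.

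**Figure D1:**
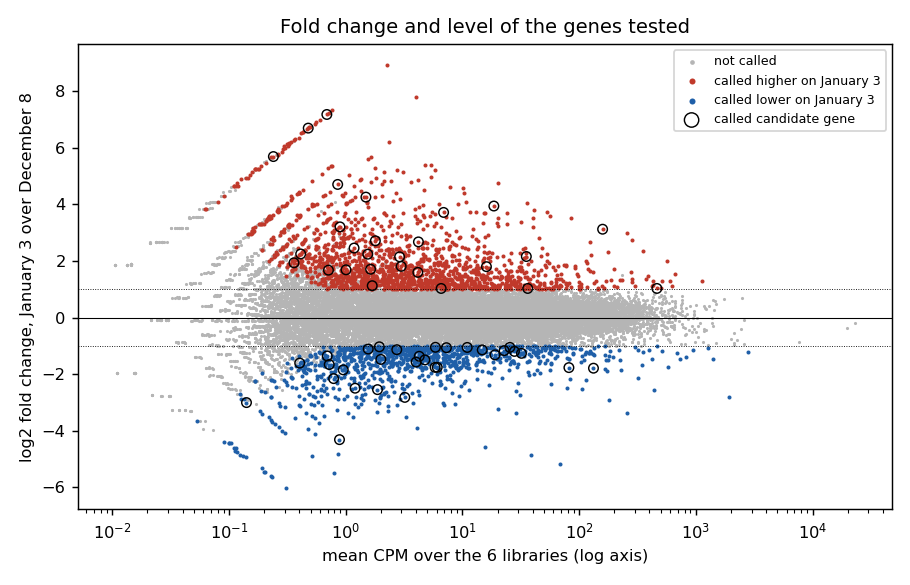
Log2 fold change of January 3 over December 8 (vertical axis) against the mean CPM of the 6 libraries (horizontal, log axis) for each gene tested that had a count at 1 of the dates or both. Red points are the 1663 genes called higher, blue points the 1063 called lower, grey points the rest, black circles the called candidate genes, and dotted lines a log2 fold change of 1 and -1. The diagonal streaks at the left are genes with very few counts at 1 date.

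Outside the candidate table the files give identifiers without names. Among called genes with at least 10 CPM at the higher date, PAV06g0302381 had 9.30, 13.7 and 8.56 CPM on January 3 and 0.327, 0.0920 and 0.282 CPM on December 8 (log2 fold change 5.38 ± 0.86 SE, adjusted p = 9.87e-05). PAV01g0044861 had 17.8, 8.34 and 8.12 CPM on January 3 and 0.131, 0.828 and 0 CPM on December 8 (5.22 ± 0.87, adjusted p = 0.000157), with a log2 fold change of 7.07 without replicate 2 of December 8. These are the strongest increases by this rule, and both rested on few December reads. The strongest decrease was that of PAV01g0037731, with 3.31, 3.73 and 4.11 CPM on January 3 and 140.0, 109 and 147 CPM on December 8 (-5.16 ± 0.18, adjusted p = 5.68e-12). It was followed by a gene of an unplaced contig, 000105F_QUIVER_SUBSEQ_1-351896_OBJg0419261, with 1.91, 3.26 and 2.71 CPM on January 3 and 66.0, 89.6 and 68.7 CPM on December 8 (-4.85 ± 0.20, adjusted p = 4.77e-11). For the decreases the December levels were high and the replicates close.

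The called genes were spread over the chromosomes as the identifiers number them. The share called higher ran from 5.06% of the genes tested on chromosome 7 to 7.98% on chromosome 4, and the share called lower from 3.70% on chromosome 2 to 4.53% on chromosome 6, with 3.25% on unplaced contigs. Runs of at least 3 neighbouring genes called in the same direction numbered 35 for higher genes, the longest with 6 genes, and 11 for lower genes, each with 3.

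Of the 585 candidate genes, 316 had enough counts to be tested, and of these 27 stood higher and 30 lower at the January date. That is 8.54% and 9.49% of those tested, beside 6.34% and 4.05% of all genes tested. The median log2 fold change of the 316 was -0.07, beside 0.07 over all genes. Of the 269 not tested, 135 had no count in any of the 18 libraries and 201 had none at either of these dates. The lowest and highest libraries of the dates did not overlap for 56 of the 57 called candidates, the exception being CELLULOSE SYNTHASE-like_5_2. Among all called genes the dates were likewise apart in 1620 of 1663 higher and 1023 of 1063 lower genes. Over all genes tested, 28.5% lay wholly higher and 20.4% wholly lower. The call itself favours separated genes, so this count is nothing particular to the candidates. Without replicate 1 of January 3, 22 candidates were higher and 26 lower, and without replicate 2 of December 8, 24 and 26.

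**Figure D2:**
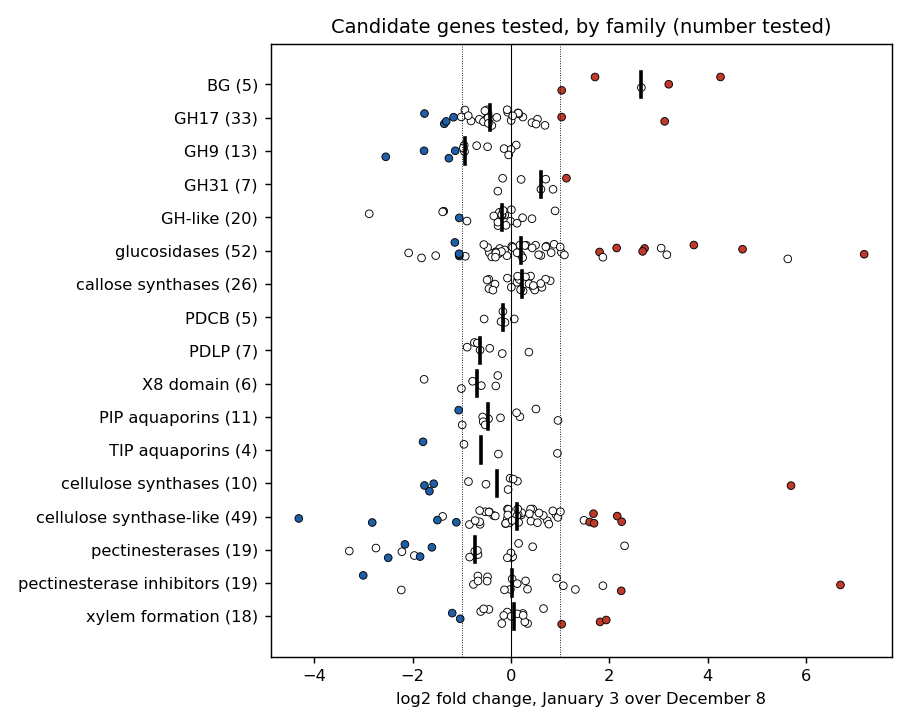
Log2 fold change of January 3 over December 8 for each candidate gene tested (points), by family, with the number tested in brackets. Red points were called higher, blue points lower and white points not called, black bars are family medians and dotted lines a log2 fold change of 1 and -1. All BG points lie above 0, 11 of the 13 GH9 points lie below 0, and no callose synthase lies beyond the dotted lines.

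The symplasmic route passes from cell to cell through plasmodesmata. Its β-1,3-glucanases went in different directions: 4 BG genes and 2 GH17 genes were higher on January 3 than on December 8, and 4 GH17 genes were lower. GH17_22, a gene of the GH17 β-1,3-glucanase family, had 376, 248 and 231 CPM on January 3 against 32.2, 41.7 and 24.2 CPM on December 8. The dates did not overlap, and the log2 fold change was 3.12 ± 0.36 (adjusted p = 4.11e-06), an 8.72-fold higher level. GH17_17 had 50.2, 45.7 and 50.2 CPM on January 3 against 24.4, 21.5 and 25.5 CPM on December 8 (1.03 ± 0.09, adjusted p = 2.12e-07), and its log2 fold change was 0.97 without replicate 2 of December 8, under the threshold.

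The GH17 genes that were lower are GH17_25, GH17_31, GH17_14 and GH17_3. GH17_25 had 3.37, 2.14 and 2.71 CPM on January 3 against 8.63, 10.7 and 8.94 CPM on December 8 (-1.76 ± 0.25, adjusted p = 3.73e-05). GH17_14 had 10.1, 10.2 and 12.4 CPM on January 3 against 28.1, 28.1 and 25.1 CPM on December 8 (-1.31 ± 0.19, adjusted p = 3.67e-05). In each of these the 3 January libraries lay well below the 3 December libraries. GH17_3 had 15.1, 14.1 and 12.8 CPM on January 3 against 29.0, 32.9 and 32.8 CPM on December 8 (-1.17 ± 0.11, adjusted p = 4.13e-07). GH17_31, under 1.3 CPM in all 6 libraries, had a log2 fold change of -1.35 ± 0.46 (adjusted p = 0.0277), which lost its call without replicate 1 of January 3 (adjusted p = 0.118) or replicate 3 of December 8 (adjusted p = 0.0890).

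Of the 33 GH17 genes tested, 6.06% were called higher and 12.1% lower, beside 6.34% and 4.05% of all genes tested. The other 27 were not called. By an adjusted p under 0.05 alone, 15 of the 33 had a negative fold change, against 3 with a positive one. Over all genes, 15.6% and 21.8% did. The median log2 fold change of the family was -0.43, beside 0.07 over all genes. GH17_19 had 9.30, 8.66 and 12.1 CPM on January 3 against 20.1, 18.5 and 18.6 CPM on December 8, a log2 fold change of -0.94 ± 0.13, short of the threshold. Without replicate 3 of January 3 it was -1.09 and past it, as it was with no filter on low counts and with both dates fitted alone (-1.02). The smallest change of GH17_19 when 1 library was left out was -0.84. GH17_30, GH17_28 and GH17_5 had log2 fold changes of -0.64, -0.56 and -0.53, and GH17_9, under 0.5 CPM in every library, of 0.51 ± 0.68.

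The BG genes of the candidate table are named after β-1,3-glucanases that, in Arabidopsis, are known mainly from the response to pathogens. Of the 13 members, 5 were tested and 4 were higher on January 3, where 6.34% of all genes tested were called higher. These BG genes lie close together on chromosome 7, between PAV07g0328831 and PAV07g0329001. Where copies are near-identical, how reads that match several of them were counted is not given, so single values are uncertain. BG_3C had by far the most reads, with 822, 460 and 585 CPM on January 3 against 272, 382 and 260 CPM on December 8 (1.03 ± 0.34, adjusted p = 0.0226). The dates did not overlap but its call was lost without replicate 1 of January 3 (log2 fold change 0.78), replicate 1 of December 8 (0.96) or replicate 3 of December 8 (0.93).

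BG_1A had 1.53, 1.11 and 2.18 CPM on January 3 against 0.0654, 0.276 and 0.188 CPM on December 8 (3.21 ± 0.52, adjusted p = 0.000108). BG_3B had 2.04, 1.51 and 3.93 CPM on January 3 against 0.458, 1.10 and 0.753 CPM on December 8 (1.71 ± 0.43, adjusted p = 0.00447). Both were higher in every January library. BG_3E had 2.80, 0.953 and 4.72 CPM on January 3 against 0, 0.460 and 0 CPM on December 8 (4.26 ± 1.52, adjusted p = 0.0347). Its December level rests on 5 reads in replicate 2, and the call was lost without any 1 of 5 libraries, the exception being replicate 2 of January 3. Without replicates 1 and 3 of December 8 and 1 and 3 of January 3, left out in turn, its log2 fold changes were 3.53, 3.79, 4.25 and 3.75. Without replicate 2 of December 8, no December read is left and the adjusted p was 0.0503.

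**Figure D3:**
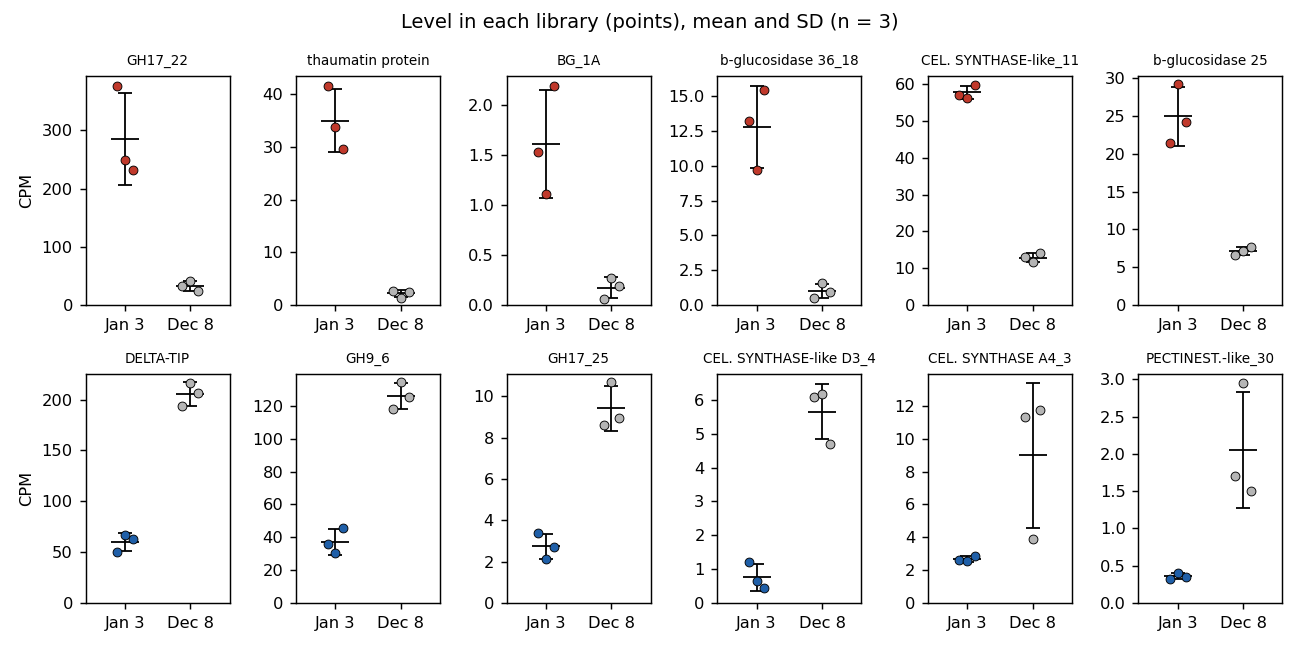
Level of 12 called candidate genes in CPM (vertical axes, each from 0) in the 3 libraries of January 3 (coloured) and the 3 of December 8 (grey), with mean and SD as black bars (n = 3). The upper row holds genes called higher and the lower row genes called lower on January 3. In all 12 the points of both dates are apart, and in CELLULOSE SYNTHASE A4_3 replicate 2 of December 8, at 3.87 CPM, lies nearest to the January points.

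Beside the glucanases, the candidate table lists 151 glucosidases, enzymes that release glucose from glycosides, of which 52 were tested. On January 3, 7 were higher and 3 lower than on December 8 (13.5% and 5.77%), beside 6.34% and 4.05% of all genes tested. The increases included neighbours on chromosome 7, where beta glucosidase 36_19, beta glucosidase 2_8 and beta glucosidase 36_18 stand between PAV07g0336501 and PAV07g0336551 together with a cytochrome P450 of the same table. Where these are near-identical copies, the same uncertainty about reads with several matches holds. Beta glucosidase 36_18 had 13.2, 9.69 and 15.5 CPM on January 3 against 0.523, 1.56 and 0.942 CPM on December 8 (3.72 ± 0.58, adjusted p = 8.22e-05). Beta glucosidase 36_19 had 5.79, 6.99 and 9.0 CPM on January 3 against 0.981, 1.56 and 0.847 CPM on December 8 (2.68 ± 0.52, adjusted p = 0.000646). In both the dates were far apart.

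Beta glucosidase 2_8 had 66 reads on January 3 and 2 on December 8, a ratio of 30.5 after scaling with a 95% exact counting interval of 8.13 to 257 (adjusted p = 0.000507). The cytochrome P450 had 1.66, 1.67 and 2.71 CPM on January 3 against 0.392, 0.460 and 0.188 CPM on December 8 (2.46 ± 0.74, adjusted p = 0.0143). It was higher in every January library, and without replicate 3 of December 8 its log2 fold change was 2.21 with an adjusted p of 0.0505. On chromosome 8, beta glucosidase 36_12 had 53 reads on January 3 and none on December 8, at least 16.3-fold higher when December is set to a floor of 3 reads over the group (adjusted p = 0.0144). Without both libraries with the lowest mapping shares its adjusted p was 0.0995, and that of the cytochrome P450 was 0.0640. Intervals and floors cover counting error only.

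Beta glucosidase 25 had 21.5, 29.2 and 24.2 CPM on January 3 against 6.61, 7.18 and 7.72 CPM on December 8 (1.80 ± 0.15, adjusted p = 1.37e-07). Both its neighbours on chromosome 3 were called higher too, the only run of 3 neighbouring called genes that holds a candidate. Beta-glucosidase 47_4, with 2.10, 3.02 and 4.28 CPM on January 3 against 0.523, 0.552 and 0.282 CPM on December 8, had a log2 fold change of 2.72 ± 0.51 (adjusted p = 0.000416). Beta glucosidase 27_1 had 4.84, 3.42 and 5.94 CPM on January 3 against 1.11, 1.01 and 1.04 CPM on December 8 (2.15 ± 0.35, adjusted p = 0.000137). GH-31-like, of a family with α-glucosidases, was higher at 1.13 ± 0.29 (adjusted p = 0.00517), which without replicate 2 of December 8 was just under the threshold.

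The glucosidases that were lower changed less. B-S glucosidase 44_2 had 9.68, 8.26 and 9.70 CPM on January 3 against 20.0, 19.6 and 21.4 CPM on December 8 (-1.14 ± 0.18, adjusted p = 0.000109). Beta glucosidase 36_11 had a log2 fold change of -1.05 ± 0.21. Without replicate 2 of December 8 it was -0.96, just under the threshold in size, with an adjusted p of 0.00506. Beta glucosidase 36_38 had -1.05 ± 0.38, and -0.74, -0.91 and -0.99 without replicate 2 of December 8, replicate 1 of January 3 or replicate 3 of January 3. The adjusted p was then 0.179, 0.123 and 0.0947 in this order, so the call of 36_38 was lost each time.

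The GH9 genes encode endo-1,4-β-glucanases in Arabidopsis, enzymes that cut cellulose-type glucans. Of 13 tested, edgeR called 4 lower (30.8%) and none higher on January 3 than on December 8, beside 4.05% and 6.34% of all genes. DESeq2 called 5 and none, and the median log2 fold change was -0.94, beside 0.07 over all genes. GH9_6 had 35.9, 30.2 and 45.4 CPM on January 3 against 118, 135 and 126 CPM on December 8 (-1.77 ± 0.12, adjusted p = 1.46e-08). GH9_5 had 19.4, 17.2 and 20.1 CPM on January 3 against 46.9, 43.8 and 44.9 CPM on December 8 (-1.26 ± 0.07, adjusted p = 2.65e-09). In both the spread within a date was small beside the difference.

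GH9_24A had 0.191, 0.635 and 0.874 CPM on January 3 against 3.21, 3.59 and 2.73 CPM on December 8 (-2.54 ± 0.34, adjusted p = 1.85e-05). GH9_1B, matched to Arabidopsis cellulase 2, had 1.34, 1.75 and 2.10 CPM on January 3 against 3.53, 4.69 and 3.01 CPM on December 8 (-1.13 ± 0.28, adjusted p = 0.00366). Its log2 fold change was -0.96 without replicate 1 of January 3 and -0.95 without replicate 2 of December 8, under the threshold. A further 4 GH9 genes had an adjusted p under 0.05 and log2 fold changes between -0.97 and -0.70: GH9_9A1, GH9_11E, GH9_9B3 and GH9_17. Each passed the threshold without some library: GH9_9A1 at -1.04 without replicate 2 of December 8, GH9_11E at -1.40 without replicate 3 of January 3 and -1.13 without replicate 3 of December 8, and GH9_9B3 at -1.06 and GH9_17 at -1.16 without replicate 1 of January 3. Leaving out other libraries made the changes smaller, down to -0.87 for GH9_9A1, -0.57 for GH9_11E, -0.83 for GH9_9B3 and -0.50 for GH9_17.

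Other members of the symplasmic list changed singly. A gene of the pathogenesis-related thaumatin superfamily, related to the PR-5 proteins of plant defence, had 41.5, 33.8 and 29.6 CPM on January 3 against 2.75, 1.38 and 2.54 CPM on December 8 (3.94 ± 0.34, adjusted p = 1.93e-07). It had the largest fold change among called candidates above 10 CPM at either date. GH-like_37 and GH-like_35, which the table describes as α/β-hydrolases, were lower, with log2 fold changes of -1.37 ± 0.24 and -1.05 ± 0.10. For GH-like_35 it was -0.98 without replicate 2 of January 3 and just under 1 in size without replicate 2 of December 8. A gene described as Six-hairpin glycosidases had 0.700, 1.27 and 1.22 CPM on January 3 against 2.75, 3.04 and 3.01 CPM on December 8 (-1.48 ± 0.26, adjusted p = 0.000212).

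None of the 26 callose synthases tested was called, with log2 fold changes between -0.48 and 0.80 and a median of 0.22. By adjusted p alone, 7 had positive and 3 negative fold changes under edgeR, where 21.8% and 15.6% of all genes did. At an unadjusted p under 0.05 there were 8 and 4, beside 26.8% and 19.3% of all genes, and DESeq2 called none either. CALS_5C had 62.1, 65.8 and 81.3 CPM on January 3 against 45.5, 46.8 and 42.6 CPM on December 8 (0.63 ± 0.09, adjusted p = 4.20e-05), and CALS_5D had 14.6, 9.69 and 13.6 CPM on January 3 against 7.52, 7.09 and 8.76 CPM on December 8 (0.70 ± 0.20, adjusted p = 0.0103). GSL-like1, one of the most counted of these genes, had 304, 321 and 347 CPM on January 3 against 461, 451 and 446 CPM on December 8 (-0.48 ± 0.09, adjusted p = 0.000329). In these 3 genes the libraries of the dates did not overlap, at differences under 2-fold.

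The plasmodesmal proteins were also without a call, with edgeR as with DESeq2. At an unadjusted p under 0.05, 1 of 5 PDCB genes, 3 of 7 PDLP genes and 2 of 6 genes with a callose-binding X8 domain had negative fold changes and none a positive one, beside 19.3% of all genes with a negative and 26.8% with a positive fold change at that p. With so few members, these counts are only a description. PDCB proteins bind callose at plasmodesmata: PDCB5A had 9.61, 9.93 and 11.1 CPM on January 3 against 9.94, 14.3 and 11.1 CPM on December 8 (-0.20 ± 0.23, adjusted p = 0.515), and PDCB5B, near 1 CPM, had -0.16 ± 0.33. PDCB3A had -0.54 ± 0.16 (adjusted p = 0.0145). PDLP proteins, which sit in the plasmodesmal membrane and in Arabidopsis regulate callose there, had negative fold changes in 6 of 7 genes tested and a median of -0.63. PDLP8 had 2.87, 3.73 and 2.36 CPM on January 3 against 5.23, 5.25 and 3.30 CPM on December 8 (-0.63 ± 0.24, adjusted p = 0.0493), and its libraries overlapped. PDLP2 (-0.74 ± 0.12) and PDLP1 (-0.68 ± 0.13) also had an adjusted p under 0.05.

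Aquaporins let water cross membranes. Of 15 tested, edgeR called 2 lower (13.3%) and none higher on January 3 than on December 8, beside 4.05% and 6.34% of all genes. DESeq2 called 3 and none. At an unadjusted p under 0.05, 6 of the 11 plasma membrane aquaporins had a negative and 2 a positive fold change, and 2 of the 4 of the vacuolar membrane a negative one, beside 19.3% negative and 26.8% positive over all genes. DELTA-TIP, of the aquaporins of the vacuolar membrane, had 50.0, 66.5 and 62.6 CPM on January 3 against 194, 217 and 207 CPM on December 8 (-1.79 ± 0.21, adjusted p = 5.08e-06). Every January library lay far below every December library. PIP2D1, of the plasma membrane aquaporins, had 4.78, 4.85 and 4.46 CPM on January 3 against 7.52, 11.9 and 10.3 CPM on December 8 (-1.06 ± 0.21, adjusted p = 0.000818). Without replicate 2 of December 8 its log2 fold change was -0.91.

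More aquaporins had differences of less than 2-fold. PIP1B3 had 80.4, 85.5 and 87.9 CPM on January 3 against 167, 162 and 174 CPM on December 8 (-0.99 ± 0.10, adjusted p = 7.72e-07), and GAMMA-TIP1 had 68.3, 94.5 and 103 CPM on January 3 against 149, 180 and 185 CPM on December 8 (-0.95 ± 0.23, adjusted p = 0.00280). Both stood just short of the threshold. With every other filter on low counts and with both dates fitted alone they passed it (-1.07 to -1.05 for PIP1B3 and -1.04 to -1.01 for GAMMA-TIP1), PIP1B3 also with DESeq2 and upper quartile normalization (both -1.03). They also passed it without some libraries: PIP1B3 reached -1.01 without replicate 2 of December 8 and -1.02 without replicate 3 of January 3, and GAMMA-TIP1 -1.04 without replicate 1 of December 8, just past -1 without replicate 2 of January 3 and -1.07 without replicate 3 of January 3. Leaving out other libraries gave smaller changes, down to -0.95 for PIP1B3 and -0.80 for GAMMA-TIP1. PIP2D2, the most counted aquaporin, had 498, 459 and 436 CPM on January 3 against 640, 743 and 691 CPM on December 8 (-0.57 ± 0.08), and PIP3B had 138, 168 and 175 CPM on January 3 against 224, 251 and 216 CPM on December 8 (-0.52 ± 0.15). PIP1B1 had the opposite sign, with 30.1, 27.5 and 26.8 CPM on January 3 against 13.3, 15.3 and 15.1 CPM on December 8 (0.96 ± 0.13, adjusted p = 2.65e-05), as did PIP1B2 (0.51 ± 0.12, adjusted p = 0.00247).

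**Figure D4:**
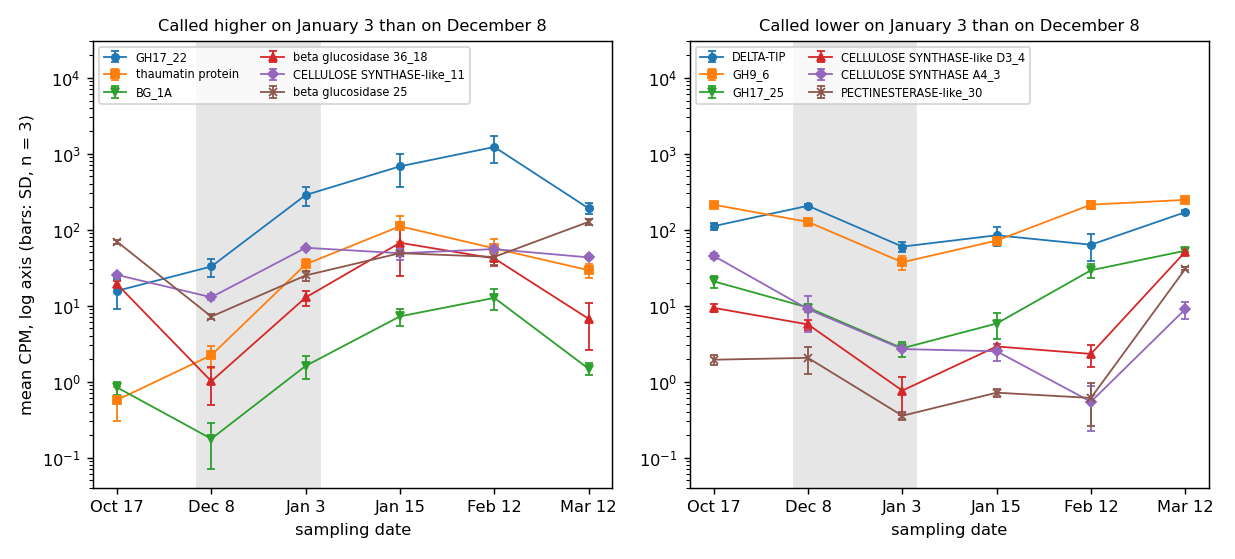
Mean CPM of the same 12 genes at the 6 dates (log axis), with SD bars over 3 libraries, the lower bars cut at 90% of the mean. The left panel holds genes called higher on January 3 than on December 8, the right panel genes called lower, and the grey band covers both dates. GH17_22 peaked on February 12 at a mean of 1223 CPM, whereas GH9_6 and GH17_25 had their lowest mean on January 3.

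The apoplastic route runs through the cell walls. Among the cellulose synthases, 3 of 10 tested were lower (30%) and 1 higher (10%) on January 3 than on December 8. Of all genes tested, 4.05% were called lower and 6.34% higher. CELLULOSE SYNTHASE A4_3 and A4_2 are matched to a gene that in Arabidopsis makes cellulose of secondary walls. A4_3 had 2.61, 2.54 and 2.88 CPM on January 3 against 11.3, 3.87 and 11.8 CPM on December 8 (-1.76 ± 0.33, adjusted p = 0.000451), and A4_2 had 1.53, 3.10 and 1.49 CPM on January 3 against 7.20, 3.59 and 7.16 CPM on December 8 (-1.57 ± 0.28, adjusted p = 0.000261). Replicate 2 of December 8 was the lowest December library in both, and without it the log2 fold changes were -2.11 and -1.82. These genes are neighbours on chromosome 8.

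CELLULOSE SYNTHASE 5_1 had 0.446, 0.318 and 0.262 CPM on January 3 against 1.44, 0.736 and 1.13 CPM on December 8 (-1.66 ± 0.53, adjusted p = 0.0197). Its call was lost without replicate 1 of December 8 (adjusted p = 0.0971), replicate 2 of January 3 (0.0550) or replicate 3 of January 3 (0.0609). Its neighbour on chromosome 7, CELLULOSE SYNTHASE-like_3_1, had 2.74, 3.34 and 1.40 CPM on January 3 against 9.16, 4.60 and 7.34 CPM on December 8 (-1.49 ± 0.29, adjusted p = 0.000543), again with replicate 2 as the lowest December library. The gene that was higher, CELLULOSE SYNTHASE 6_2, had 19 reads on January 3 and none on December 8, at least 5.86-fold higher against the floor of 3 reads (adjusted p = 0.00402).

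Of 49 cellulose synthase-like genes tested, 5 were higher (10.2%) and 4 lower (8.16%), beside 6.34% and 4.05% of all genes tested. The list follows the names in the candidate table, where several members carry Arabidopsis descriptions of other proteins. Among these are CELLULOSE SYNTHASE-like_12, like_13, like_14, like_16 and G1_2, so the shares describe a list of names. In Arabidopsis the D subfamily serves in wall growth at cell tips and in new cell plates. CELLULOSE SYNTHASE-like D1_4 had 3 reads on January 3 and 61 on December 8, a 22-fold ratio in favour of December with a counting interval of 7.17 to 110 (adjusted p = 3.00e-07), and CELLULOSE SYNTHASE-like D3_4 had 1.21, 0.635 and 0.437 CPM on January 3 against 6.08, 6.17 and 4.71 CPM on December 8 (-2.82 ± 0.27, adjusted p = 4.47e-07). Other D members were higher on January 3. CELLULOSE SYNTHASE-like D4_2 had 1.66, 1.27 and 1.66 CPM on January 3 against 0.327, 0.552 and 0.565 CPM on December 8 (1.69 ± 0.40, adjusted p = 0.00288), and CELLULOSE SYNTHASE-likeD3, under 1 CPM, had 2.25 ± 0.65 (adjusted p = 0.0115), with 3.01 without replicate 2 of December 8. The call of CELLULOSE SYNTHASE-likeD3 was lost without both libraries with the lowest mapping shares (1.95, adjusted p = 0.114).

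CELLULOSE SYNTHASE-like_11 had 57.1, 56.2 and 59.8 CPM on January 3 against 13.0, 11.7 and 14 CPM on December 8 (2.16 ± 0.12, adjusted p = 1.00e-09). The closest Arabidopsis gene that the table gives for it is a protein kinase, so its name is uncertain. CELLULOSE SYNTHASE-like G3_3 had 4.71, 6.35 and 7.69 CPM on January 3 against 2.03, 1.75 and 2.35 CPM on December 8 (1.60 ± 0.25, adjusted p = 7.35e-05), and CELLULOSE SYNTHASE-like B4_1 had a log2 fold change of 1.68 ± 0.40 (adjusted p = 0.00338), a call lost without both libraries with the lowest mapping shares (1.31, adjusted p = 0.0738). The neighbour of B4_1, CELLULOSE SYNTHASE-like B4_2, had 32.8, 52.0 and 42.8 CPM on January 3 against 60.7, 70.4 and 66.8 CPM on December 8 (-0.64 ± 0.13, adjusted p = 0.00106), and CELLULOSE SYNTHASE-like E1_4 had 49.6, 34.3 and 30.8 CPM on January 3 against 22.6, 20.6 and 20.5 CPM on December 8 (0.85 ± 0.20, adjusted p = 0.00317), neither past the threshold. CELLULOSE SYNTHASE-like_5_2, the only called candidate whose dates overlapped, had 0.955, 1.43 and 0.612 CPM on January 3 against 3.07, 0.920 and 2.35 CPM on December 8 (-1.11 ± 0.43, adjusted p = 0.0492). It lost its call without replicate 1 or 3 of January 3 (log2 fold change -1.07 and -0.89) or replicate 1 or 3 of December 8 (-0.69 and -1.06), and also with a replicate block (adjusted p = 0.0633) and with both dates fitted alone (0.0591).

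Pectinesterases remove methyl groups from pectin, which changes the stiffness of the wall. Of 19 tested, edgeR called 4 lower (21.1%) and none higher on January 3 than on December 8, beside 4.05% and 6.34% of all genes. DESeq2 called 3 and none, and the median log2 fold change was -0.73, beside 0.07 over all genes. All 4 genes called lower had low levels. Membership of the family follows the names in the candidate table, which the Arabidopsis descriptions given there do not always match. PECTINESTERASE-like_30 had 0.318, 0.397 and 0.349 CPM on January 3 against 1.70, 2.94 and 1.51 CPM on December 8 (-2.49 ± 0.36, adjusted p = 3.37e-05). PECTINESTERASE-like_17 had 0.255, 0.159 and 0.437 CPM on January 3 against 0.981, 1.29 and 1.60 CPM on December 8 (-2.15 ± 0.49, adjusted p = 0.00228). PECTINESTERASE-like_16 had 0.318, 0.397 and 0.524 CPM on January 3 against 1.31, 1.56 and 1.60 CPM on December 8 (-1.85 ± 0.33, adjusted p = 0.000271). The separation was complete in these 3 genes.

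PECTINESTERASE-like_11 had a log2 fold change of -1.61 ± 0.54 (adjusted p = 0.0261) at under 1 CPM. It lost its call without replicate 3 of January 3 (-1.12) or replicate 1 (-1.56) or 2 (-1.49) of December 8, and was -2.24 without replicate 1 of January 3. PECTINESTERASE-like_5 had 21.0, 20.7 and 22.5 CPM on January 3 against 36.6, 29.3 and 41.0 CPM on December 8 (-0.73 ± 0.14, adjusted p = 0.000438), a difference of less than 2-fold. PECTINESTERASE-like_3 had -0.84 ± 0.39 (adjusted p = 0.101), and -1.27 with an adjusted p of 0.0304 without replicate 3 of January 3. At the other end, leaving out 1 library gave it -0.54.

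Of 19 genes named as pectinesterase inhibitors and tested, 2 were higher (10.5%) and 1 lower (5.26%), beside 6.34% and 4.05% of all genes tested. The Arabidopsis descriptions in the candidate table do not keep this list apart from the pectinesterases. PECTIN_INHIB_like_8 is described there as a pectin lyase-like protein, as are several pectinesterases. PECTINESTERASE-like_11 is described as of the pectin methylesterase inhibitor superfamily. Which genes encode enzymes and which inhibitors is therefore uncertain. PECTIN_INHIB_6 had 2.55, 2.22 and 2.97 CPM on January 3 against 0.785, 0.460 and 0.282 CPM on December 8 (2.24 ± 0.35, adjusted p = 7.32e-05). PECTIN_INHIB_like_21 had 39 reads on January 3 and none on December 8, at least 12.0-fold higher (adjusted p = 0.0291), and was no longer called without any 1 of 5 libraries, all but replicate 3 of January 3, with adjusted p values of 0.0545 to 0.0830. PECTIN_INHIB_like_8 had 1 read on January 3 and 10 on December 8, a 10.8-fold ratio with a counting interval of 1.54 to 469, and its call was lost without replicate 1 or 3 of January 3 (adjusted p = 0.0917 and 0.0666) or replicate 1 of December 8 (0.114). Without replicate 2 of January 3 no January read was left and it kept its call, with an adjusted p of 0.0156.

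The last route is the vascular one. Of 18 xylem formation genes tested, 3 were called higher (16.7%) and 2 lower (11.1%), beside 6.34% and 4.05% of all genes tested. DESeq2 called 1 and 2. The median log2 fold change was 0.07, beside 0.07 over all genes tested. With so few members, these counts are only a description. MYB85, known in Arabidopsis as an activator of lignin genes, had 5.79, 4.61 and 3.41 CPM on January 3 against 0.850, 2.02 and 1.22 CPM on December 8 (1.81 ± 0.60, adjusted p = 0.0243). Its libraries did not overlap, but the call was lost without replicate 1 of January 3 (1.60), replicate 1 of December 8 (1.51) or replicate 3 of December 8 (1.77). MYB7, which the study describes as a negative regulator of xylem formation, had 10.5, 8.42 and 7.43 CPM on January 3 against 3.40, 5.25 and 4.43 CPM on December 8 (myb domain protein 7, 1.03 ± 0.18, adjusted p = 0.000248). Its log2 fold change was 0.88 without replicate 1 of January 3 and 0.87 without replicate 1 of December 8.

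NAC domain containing protein 83, a repressor of vessel formation in Arabidopsis, had 0.446, 0.635 and 0.612 CPM on January 3 against 0, 0.184 and 0.282 CPM on December 8 (1.94 ± 0.67, adjusted p = 0.0291). It lost its call without replicate 1 of December 8 (1.23), replicate 2 of January 3 (1.84) or replicate 3 of January 3 (1.88), and was 2.70 without replicate 3 of December 8. Leucin-rich kinase_1 had 16.2, 16.2 and 18.5 CPM on January 3 against 39.5, 33.2 and 43.6 CPM on December 8 (-1.19 ± 0.15, adjusted p = 1.22e-05), with no overlap.

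CLE peptides of this group restrain xylem differentiation and WOX genes promote cambial division in Arabidopsis. In the candidate table the names CLE42 and CLE44, and likewise WOX4 and WOX14, are swapped relative to the Arabidopsis description given beside them, so which member a name stands for is uncertain. The gene named CLAVATA3/ESR-RELATED 44 had 1.02, 1.43 and 1.40 CPM on January 3 against 2.68, 2.67 and 2.45 CPM on December 8 (-1.03 ± 0.22, adjusted p = 0.00111), and -0.88 without replicate 1 of January 3. The gene named CLAVATA3/ESR-RELATED 42 had 9.68, 9.21 and 9.78 CPM on January 3 against 10.5, 10.1 and 7.81 CPM on December 8, and its log2 fold change of 0.00 ± 0.13 changed sign with the processing. The gene named WUSCHEL related homeobox 14 had 39.7, 38.8 and 48.4 CPM on January 3 against 34.5, 31.6 and 34.1 CPM on December 8 (0.34 ± 0.10, adjusted p = 0.0144), under the threshold.

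Placed in the course of the winter, the genes called higher on January 3 had a low point on December 8. Their median log2 level relative to October 17 was -1.03 on December 8 and 0.56 on January 3, and then 0.50, 0.77 and 0.25 on the last 3 dates. December 8 had the lowest mean of the 6 dates for 1168 of the 1663 genes (70.2%), beside 15.2% of the genes not called. February 12 had the highest for 750 (45.1%) and January 3 for 321 (19.3%), beside 16.2% and 20.7% of the genes not called. The choice of genes lowers December and raises January 3 in this count, so it is a description of the other dates.

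The genes called lower on January 3 had a median log2 level relative to October 17 of -0.11 on December 8 and -1.51 on January 3, and then of -1.09, -0.81 and 0.65 on the last 3 dates. January 3 had the lowest mean for 628 of the 1063 genes (59.1%), beside 14.7% of the genes not called. March 12 had the highest for 579 (54.5%) and December 8 for 235 (22.1%), beside 27.6% and 10.6% of the genes not called. Here the choice of genes lowers January 3 and raises December 8, and December 8 could not be the lowest date, so this count too describes the other dates only. For genes that were not called, the median lay between -0.01 and 0.03 at every later date.

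**Figure D5:**
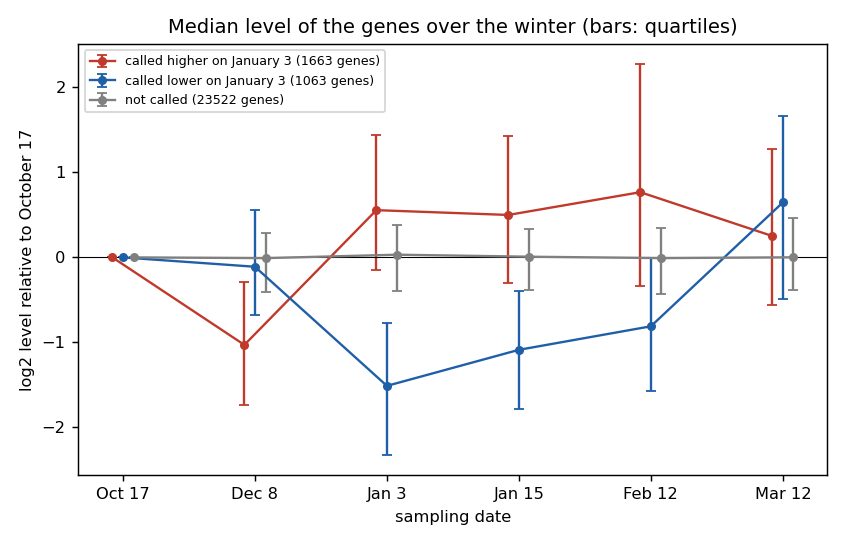
Median log2 level relative to October 17 (vertical axis, points, with quartiles as bars) at the 6 dates for the 1663 genes called higher on January 3 than on December 8 (red), the 1063 called lower (blue) and the genes not called (grey). The red median is lowest on December 8 and the blue median on January 3, and the blue median is above 0 on March 12.

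Single candidates followed several courses around these dates. The comparisons of December 8 with October 17 and of January 15 with January 3 share libraries with the one described here, so their values are only set side by side. GH17_22 averaged 15.6, 32.7, 285, 680, 1223 and 190.2 CPM at the 6 dates in their order, with log2 fold changes of 1.07 (December 8 over October 17), 3.12 (January 3 over December 8) and 1.25 (January 15 over January 3), all called. Beta glucosidase 36_18 averaged 19.1, 1.01, 12.8, 67.1, 41.8 and 6.70 CPM at the 6 dates, with -4.30, 3.72 and 2.40, each called. GH9_6 averaged 213, 126, 37.2, 71.7, 213 and 246 CPM, with -0.75, -1.77 and 0.95. The first of these 3 genes had its highest mean on February 12, the next had a December low and the last a January low.

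DELTA-TIP averaged 111, 206, 59.7, 84.2, 63.2 and 169 CPM at the 6 dates, highest on December 8, with log2 fold changes of 0.89 (adjusted p = 0.00182), -1.79 and 0.49 (adjusted p = 0.0922). CELLULOSE SYNTHASE A4_3 averaged 45.1, 8.98, 2.68, 2.50, 0.543 and 8.97 CPM, lowest on February 12, with log2 fold changes of -2.32, -1.76 and -0.10, of which the first 2 were called. GH17_17 averaged 23.6, 23.8, 48.7, 43.7, 26.6 and 14.4 CPM, highest on January 3. For the thaumatin gene (Pathogenesis-related thaumatin superfamily protein) the means were 0.572, 2.22, 34.9, 111, 56.6 and 29.2 CPM, highest on January 15.

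The study sorted 152 of the candidates into clusters by their course over these same libraries, so the following counts are no independent evidence. Of all candidates tested, 8.54% were called higher and 9.49% lower, and of all genes tested 6.34% and 4.05%. In its cluster 4, 13 of 30 genes were called higher (43.3%) and none lower on January 3. In its cluster 1, none of 27 were higher and 8 lower (29.6%). Cluster 5, with 67 genes, held 7 higher (10.4%) and 12 lower (17.9%). Cluster 3 held 1 higher of 19 (5.26%), near the share over all genes, and cluster 2 held 1 lower of 9 (11.1%), which is DELTA-TIP. All 9 genes of cluster 2 had negative fold changes, with a median log2 fold change of -0.64. By an adjusted p under 0.05 alone, 7 of the 9 were lower, beside 15.6% of all genes tested.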

How the data were processed

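RNA-seq of 18 flower bud libraries was analysed. Per the study's methods, reads were trimmed (Trimmomatic 0.36), mapped on the 'Regina' genome (STAR) and counted per gene (HTSeq), and the authors deposited raw counts for 48,133 genes per library, with no normalization. The strand setting of the counting and the treatment of reads with several matches are not given in the sources used here. Counts were normalized by TMM and tested with edgeR 4.0.16 (quasi-likelihood, 1 model of all 18 libraries with a term for each date and 12 residual degrees of freedom) in R 4.3.3, with Benjamini-Hochberg adjustment. The study tested with DESeq2, which here is an alternative (DESeq2 1.42.0). As in the study, genes averaging under 3 counts, or at 0 in more than 75% of the libraries, were dropped, which left 26,248. CPM are counts divided by the normalized library size, times 1e6, which compare dates for a gene but not genes with each other. The SE of a log2 fold change is its size divided by the square root of F. Tables and figures were made with Python 3.11.15, pandas 2.3.3, scipy 1.17.1 and matplotlib 3.10.9.

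Candidate names came from the study's table (587 entries with 585 identifiers, 524 matched in full and 63 through the number that ends a contig identifier). Called candidates, the genes the study's text names and the callose synthases are named or counted, and outside the table the 2 largest changes in each direction with a mean of at least 10 CPM at the higher date. The members and lists were chosen with earlier results of these data known. No annotation of other cell types came with the names, so the tissue label was not checked against markers and the xylem formation list stands for vascular tissue. For 200 changed genes simulated for January 3 against December 8, 98 of 100 changed 3-fold and 100 of 100 changed 6-fold were called. There was 1 false call among 26,048 genes. The simulation gave all genes the same spread beyond counting noise and, apart from planted changes, each gene 1 mean at every date. Changes were planted only among the 20,000 most counted genes. The spread of real genes differs from gene to gene, so these rates do not carry over to the data. The course over dates used log2(CPM + 0.1). Alternatives were other filters, both dates alone, upper quartile normalization, DESeq2 as the test or only for its size factors, a replicate block, no fold threshold, and leaving out libraries. That same-numbered replicates come from the same tree is not stated, and they were not paired. Gene ontology terms, TPM and sequences were not analysed here.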

Additional observations from a re-analysis of the deposited data

How the results depend on the processing

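The counts of genes and of candidates called stayed within 1.5 times their values under each alternative with the fold threshold. With no fold threshold, 5718 genes were higher and 4098 lower on January 3, 57 and 79 among the candidates. Leaving out each library in turn gave 1386 to 1649 genes higher and 989 to 1078 lower, and 21 to 26 candidates higher and 26 to 33 lower. Without both libraries with the lowest mapping shares, 19 candidates were higher and 31 lower. With another normalization the excess of higher over lower genes shrank (1543 and 1178 with upper quartile normalization), and for genes averaging 10 counts or more it was 1337 and 1128. DESeq2 called 1534 higher and 1133 lower. Same-numbered replicates of the dates did not deviate together (r = 0.0081, 0.044 and 0.0063 across genes), and a replicate block gave 1713 higher and 1064 lower, of which 1630 and 1043 were the same genes, and 28 and 30 candidates. Of 61 called genes named or counted, 38 kept their call under every alternative tried. BG_3C, GH17_17 and myb domain protein 7 fell under the threshold with DESeq2, both other normalizations, every other filter and both dates alone (log2 fold changes 0.95 to 1.00). In the other direction, GH9_9A1 and PIP1B3 passed the threshold as lower under those same settings, and GH9_9B3 and GAMMA-TIP1 with every other filter and both dates alone, GH9_11E with every other filter, and GH17_19 with no filter and both dates alone. Without both libraries with the lowest mapping shares, the calls lost included those of BG_3E (adjusted p = 0.0969), CELLULOSE SYNTHASE 5_1 (0.156), PECTIN_INHIB_like_21 (0.174), and myb domain protein 85 (0.170). NAC domain containing protein 83 (adjusted p = 0.0742), PECTINESTERASE-like_11 (0.0772) and PECTIN_INHIB_like_8 (0.0625) were not called by DESeq2, nor with both dates alone (0.0758, 0.0717 and 0.0517 in this order). CLAVATA3/ESR-RELATED 42 turned negative with DESeq2 (-0.038), its size factors (-0.034), upper quartile normalization (-0.037), no filter (-0.062), the mean count of 10 (-0.054), filterByExpr (-0.058) and both dates alone (-0.077), and ran between -0.11 and 0.091 when libraries were left out in turn. PDCB5B ran between -0.46 and 0.18 when they were left out in turn, and was 0.12 without both libraries with the lowest mapping shares. The cause of these shifts was not tested. Depth limits most the genes under 1 CPM.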

Other observations

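The filter on low counts left out 21,885 genes. Of these, 10 had at least 10 reads on January 3 and none on December 8, and 4 had at least 10 reads on December 8 and none on January 3. The only candidate among the first group was beta glucosidase 36_13, the neighbour of beta glucosidase 36_12 on chromosome 8, with 12 reads on January 3. It was not tested.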
